A study of Mus musculus with 2 samples.

Results

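Accessible chromatin was described at 10 genes of the Polycomb repressive complex 2 (PRC2) pathway in the organ of Corti of neonatal (P2) mice, the auditory sensory epithelium that holds the hair cells and supporting cells of the cochlea. The members are Ezh1, Ezh2, Eed, Suz12, Jarid2, Aebp2, Mtf2, Phf1, Phf19 and Kdm6b, chosen by name as subunits of PRC2 and a demethylase of its mark, out of 21938 protein-coding genes in the GENCODE vM21 annotation of GRCm38. A peak was assigned to a member when its centre lay within 3 kb of any annotated transcription start site (TSS) of the gene, called here a promoter peak, or in the gene body or the 10 kb upstream of it. This gave 34 of 77596 peaks of the list labelled WT and 42 of 100431 peaks of the list labelled Bmi1-/-.

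The study profiled open chromatin by ATAC-seq, in which the Tn5 transposase cuts exposed DNA and tags it for sequencing. Organs of Corti of WT mice and of Bmi1-/- littermates, from the FVB.129P2-Bmi1tm1Brn/MvlJ line backcrossed to C57BL/6J, were each pooled from several animals, and 1 library was made per genotype. Bmi1 is a subunit of PRC1, and the deletion is constitutive, so every cell type of the dissected tissue carried it. With 1 library per genotype there is no test between genotypes and no p-value, the intervals given below cover counting error only, and each difference is a difference between these libraries.

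PRC2 places methyl groups on lysine 27 of histone H3, and the trimethylated form, H3K27me3, marks genes that are held silent in development. EZH1 or EZH2 is the catalytic subunit and needs EED and SUZ12 to work. Accessory proteins split the complex into a form with JARID2 and AEBP2 and a form with 1 of the Polycomb-like proteins PHF1, MTF2 and PHF19, while KDM6B (JMJD3) removes the mark. PRC1, which holds BMI1, binds H3K27me3 through its chromobox subunits.

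The peak names inside each list carried the prefix of the other genotype in 100% of peaks, so the lists are called by their GEO labels and all directions rest on those labels. If the files had been exchanged, every direction given here would turn. At a q-value under 0.05 stood 52.4% of WT peaks and 62.8% of Bmi1-/- peaks. The lists hold no read totals. The pileup of reads at a summit and the local background under it were recovered from 2 deposited values, the fold enrichment and the −log10 p, and the lowest background in the library was 6.32 reads for WT and 8.04 for Bmi1-/-, a ratio of 1.27. The Bmi1-/- library was therefore the deeper in background, and the weakest listed peak stood at 2.06 times the lowest background in WT (13 reads) and at 1.86 times in Bmi1-/- (15 reads). Below, summit reads are divided by that lowest background and called summit enrichment. Markers of cell types, 8 per type, were searched for a promoter peak at a q-value under 0.05. Over all protein-coding genes the share was 45.3% in WT and 60.4% in Bmi1-/-. Hair cells had 6 of 8 in WT and 7 of 8 in Bmi1-/-. Supporting cells had 5 and 5 of 8 (Sox10 and Lfng had no promoter peak in either list). Counts were 3 and 6 for neurons, 5 and 6 for glia, and 2 and 4 for mesenchyme. Endothelium had 4 and 4, and blood and macrophages 1 and 0. Several of these counts lie near the share of all genes, so they do not tell which cells were present. The part of these cell types in the member peaks was not tested, and in a pooled tissue more cells of a type and more open chromatin per cell cannot be told apart.

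When any annotated start site was counted, nearly every member had a promoter peak in both lists. With start sites of coding transcripts alone, 8 members did. The WT promoter peaks of Ezh1 lay 23.3 to 34.9 kb downstream of its 5′-most coding TSS. A promoter peak was listed for 10 of 10 members in WT, against 59.1% of all protein-coding genes, and for 9 of 10 in Bmi1-/-, against 68.2%. A gene with many start sites, such as Jarid2 with 16, has more windows in which a peak counts. The comparisons with all genes, here and for the ranks below, were not matched for this. The 9 genes with a promoter peak in both lists were all members except Kdm6b (53% of all genes), the demethylase, whose promoter peak was in the WT list only (6.1% of all genes). No member had a promoter peak in the Bmi1-/- list only, as 15.2% of all genes did, although Ezh1 did when curated RefSeq start sites, coding transcripts or the 5′-most coding TSS were counted alone. At a q-value under 0.05, 9 members kept a promoter peak in WT (45.3% of all genes), the exception being Mtf2, and 9 did in Bmi1-/- (60.4% of all genes), the exception being Kdm6b.

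The strongest promoter peak of a member, by −log10 p, ranked high in its own list. Its median percentile was 91.5 over the 10 members in WT, beside 76.8 over all 12956 genes with a promoter peak, and 97.9 over 9 members in Bmi1-/-, beside 87.3 over 14960 genes. The rank was higher in Bmi1-/- for 7 of 10 members (Ezh1, Ezh2, Suz12, Jarid2, Aebp2, Mtf2 and Phf19) and higher in WT for Eed, Phf1 and Kdm6b. For Ezh1 and Kdm6b this does not compare 1 site. The Ezh1 peaks lay 30.9 kb (WT) and 0.164 kb (Bmi1-/-) downstream of the first TSS. Kdm6b had a peak at the 98.0th percentile in Bmi1-/-, but 5.3 kb upstream and so outside the promoter window. Since 68.6% of all 16298 genes with a promoter peak also had the higher rank in Bmi1-/-, the members' share of 7 in 10 is near the background. The plot of ranks gives the place of each gene in both lists.

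**Figure D1:**
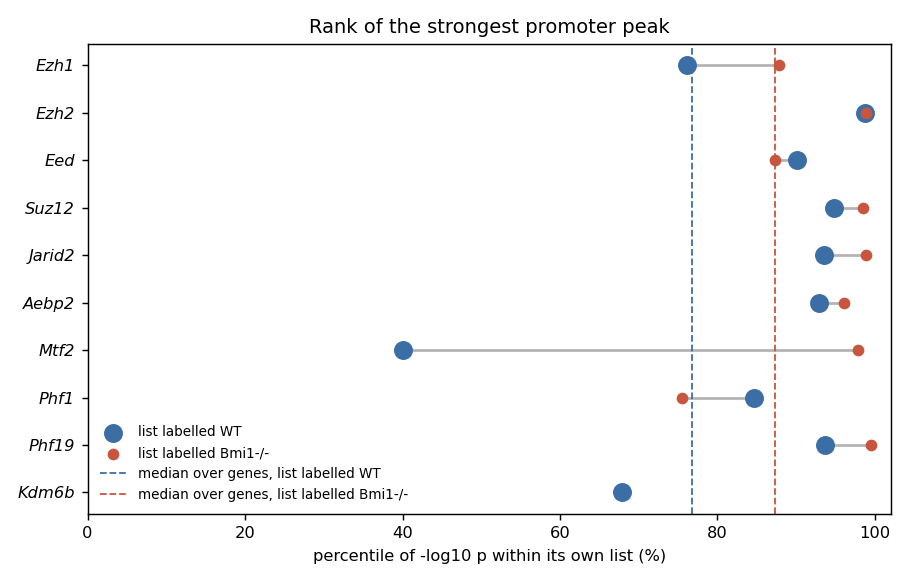
Percentile of −log10 p (x axis, %) of the strongest promoter peak of each gene (y axis) within its own list, with WT in blue and Bmi1-/- in red, and dashed lines at the medians over all genes with a promoter peak (76.8 and 87.3). Mtf2 has the widest gap, 40.1 in WT and 97.9 in Bmi1-/-, and Kdm6b has a WT point only. The Ezh1 points are peaks at different start sites.

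Of the 9 members with a promoter peak in both lists, the strongest peaks of the lists overlapped for 8, against 55.4% of 11618 such genes over the whole annotation, and Ezh1 was the exception. Over all member peaks, 17 of 34 WT peaks (50%, exact binomial 95% interval 32.4 to 67.6) overlapped a Bmi1-/- peak by at least 1 bp, beside 24.8% of all WT peaks. In the other direction 15 of 42 Bmi1-/- peaks (35.7%, 21.6 to 52.0) overlapped a WT peak, beside 18.5% of all. The shared peaks were mostly at promoters. There 14 of 22 peaks in WT (63.6%, 40.7 to 82.8) and 12 of 22 in Bmi1-/- (54.5%, 32.2 to 75.6) overlapped. Away from a TSS 3 of 12 and 3 of 20 did. The whole lists had the same order: 48.8% of all WT promoter peaks and 36.6% of all Bmi1-/- promoter peaks overlapped, beside 16.1% and 12.2% of the peaks away from a TSS. The promoter intervals of the members include these promoter shares, so at promoters the members were not set apart from all genes. The shared member peaks were also the wide ones, with a median width of 547 bp in WT and 550 bp in Bmi1-/-, beside 272 and 243 bp for peaks without a partner. A wide peak meets the 1 bp rule more easily, and these widths were not compared over the whole lists.

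**Figure D2:**
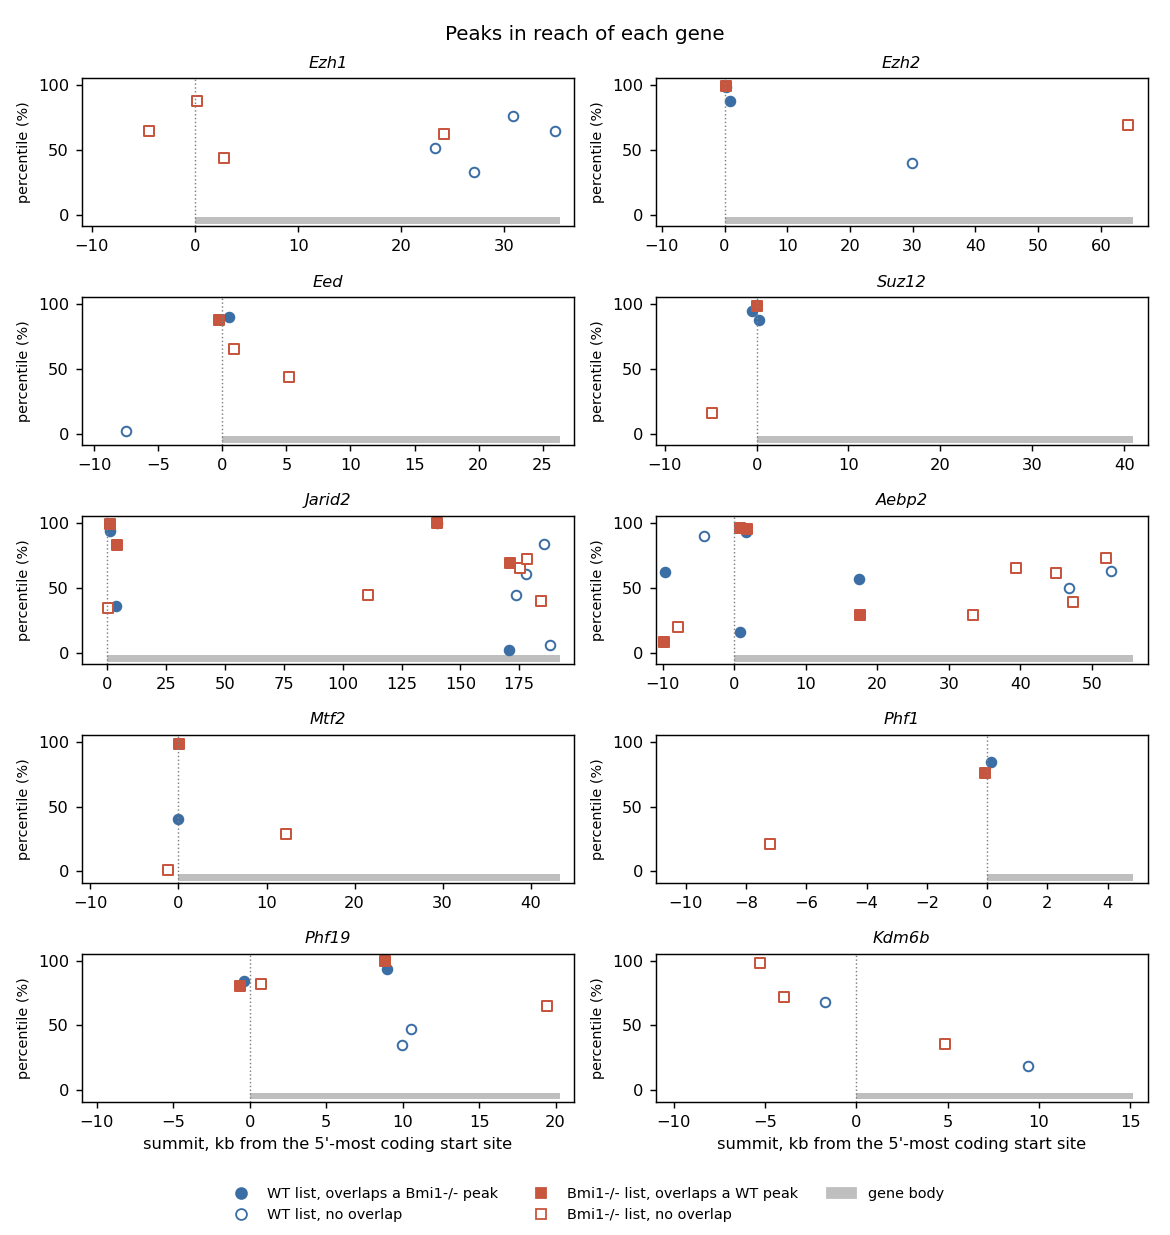
Every peak in reach of each gene, placed by the distance of its summit from the 5′-most start site of a coding transcript (x axis, kb, direction of transcription to the right) and its percentile within its own list (y axis, %). Filled marks overlap a peak of the other list and open marks do not; circles are WT, squares Bmi1-/-, and the grey bar is the gene body. Shared peaks lie at or near the start site in 8 genes, Jarid2 has others up to 171 kb downstream, Aebp2 has others 9.6 kb upstream and 17.4 kb downstream, Phf19 has a shared peak 9 kb inside the gene, and Ezh1 and Kdm6b have no filled mark.

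Most promoter windows of the members were rich in G, C and CpG. Reading the 300-base RefSeq promoter windows of GRCm38.p6 (250 bases before to 50 after a start site), 13 windows of 9 members were found, and their median GC content was 62.7% beside 52.7% over 32851 windows, with a CpG observed over expected of 0.810 beside 0.384. Around the summits of the strongest promoter peaks the gap to all genes was smaller: the median GC content was 66.2% beside 61.2% in WT and 66.7% beside 63.2% in Bmi1-/-, and CpG observed over expected was 0.762 beside 0.559 and 0.847 beside 0.647. Some promoter windows fell below the medians of all windows. A window of Mtf2 had 45.7% GC and a CpG observed over expected of 0.132. Windows of Aebp2 had 48% and 0.232, and 50.7% and 0.215. Single peaks were poor in CpG, with 0.0593 at the WT peak of Kdm6b and 0.281 at that of Ezh1. The GC box GGGCGG (bound by SP factors), searched on both strands, was in 8 of the 13 windows (of Aebp2, Jarid2, Mtf2, Phf1, Phf19 and Suz12) and in 35.7% of all windows, though the matches of Aebp2 and Phf19 lay in no peak. The CCAAT box was in 7 of the 13 (of Aebp2, Eed, Ezh2, Jarid2, Mtf2 and Suz12) and in 37.4% of all. The matches of Aebp2 and Mtf2 lay in no peak. The E2F forms TTTGGCGC and TTTCCCGC, bound by regulators of S phase genes, were in 3 of the 13 and in 1.56% of all windows. The former was in Ezh2, inside a peak of both lists. The latter was in Suz12, inside a Bmi1-/- peak only, and in Phf19, in no peak. The TATA box TATAAA was found in Jarid2 alone (13.6% of all windows), in no peak. TGACGTCA, CCGGAAG, GCGCATGCG and ATGGCGGC were in none of the 13 (1.79, 8.86, 1.75 and 2.24% of all windows). A match is a description of the letters only.

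The sequences that carry the promoter peaks follow. They are free of annotated exons and read 5′ to 3′ on the strand of the gene from GRCm38, with the GC box, the CCAAT box and the E2F form in capitals. The Ezh1 window holds the summit of a peak listed in Bmi1-/- only, the Suz12 windows lie in the peak that joins 2 WT peaks, the Mtf2 window is the upstream side of the peak with the widest gap in rank, the Phf1 window holds the summit of the Bmi1-/- peak of a gene whose rank was higher in WT, and the Phf19 window holds the summit of the strongest promoter peak of any member, at an internal start site.
Ezh1, chr11:101226224-101226373 (minus strand): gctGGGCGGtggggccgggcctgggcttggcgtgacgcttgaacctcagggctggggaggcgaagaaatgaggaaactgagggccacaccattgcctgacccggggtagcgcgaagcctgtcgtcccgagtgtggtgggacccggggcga
Suz12, chr11:79992956-79993105 (plus strand): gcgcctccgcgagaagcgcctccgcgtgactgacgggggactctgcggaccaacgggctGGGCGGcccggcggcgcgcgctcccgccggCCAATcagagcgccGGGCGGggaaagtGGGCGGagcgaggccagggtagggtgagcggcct
Suz12, chr11:79992867-79992914 (plus strand): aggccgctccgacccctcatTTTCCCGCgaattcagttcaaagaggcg
Mtf2, chr5:108065551-108065659 (plus strand): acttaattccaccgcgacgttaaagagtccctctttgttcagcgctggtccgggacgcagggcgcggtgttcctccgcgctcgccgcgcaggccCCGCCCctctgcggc
Phf1, chr17:26932908-26933051 (plus strand): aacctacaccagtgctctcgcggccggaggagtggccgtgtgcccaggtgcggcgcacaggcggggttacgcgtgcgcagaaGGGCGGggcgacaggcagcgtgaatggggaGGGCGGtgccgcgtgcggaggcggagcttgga
Phf19, chr2:34905087-34905236 (minus strand): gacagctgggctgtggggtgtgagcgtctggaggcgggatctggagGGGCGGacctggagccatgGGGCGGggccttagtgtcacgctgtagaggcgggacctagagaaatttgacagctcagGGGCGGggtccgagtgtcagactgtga
The Phf19 window holds 3 GC boxes although it lies 9 kb inside the gene, and the Suz12 window next to the start site holds 3 GC boxes and a CCAAT box. The E2F form of Suz12 began 219 bases before the start site, inside the Bmi1-/- peak and next to the start of a WT peak.

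Of the catalytic subunits, Ezh2, the methyltransferase of dividing cells, had the highest promoter rank of the core in WT. The WT peak at chr6:47594908-47595683, with its summit in an intron, held 27 reads, a summit enrichment of 4.27 (Poisson 95% interval 2.81 to 6.21), and stood at the 98.7th percentile. In Bmi1-/- 1 peak of 1521 bp, chr6:47594010-47595530, overlapped this peak and a second WT peak at chr6:47594100-47594798, and it held 37 reads at an enrichment of 4.60 (3.24 to 6.34), the 98.9th percentile. The summits were 28 bp apart, and the ratio of enrichments, Bmi1-/- to WT, was 1.08 (exact conditional interval 0.638 to 1.84), which leaves room for a change in either direction. Its other peaks were weak and unshared: 1 WT peak 29.9 kb into the gene at the 40.1st percentile and 1 Bmi1-/- peak 64.4 kb into it at the 69.3rd.

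Ezh1, the catalytic subunit of resting and differentiated cells, was the only member whose 5′ start site carried a peak in the Bmi1-/- list alone. In Bmi1-/- the peak at chr11:101226063-101226623 had its summit 164 bp inside the first TSS, with 27 reads, an enrichment of 3.36 (2.21 to 4.88) and the 87.8th percentile. By summit enrichment the order turned, the strongest WT promoter peak standing at 3.48. The WT list had no peak within 3 kb of that site, the weakest peak of that list anywhere holding 13 reads. Its 4 WT peaks lay 23.3 to 34.9 kb downstream of that TSS, near start sites of noncoding transcripts, at the 32.7th to 76.2nd percentile, and none of the 4 overlapped a peak of the other list; for 3 of them the nearest coding TSS was that of the neighbour Cntnap1. The promoter call of Ezh1 in WT thus rests on internal start sites, and with curated RefSeq start sites Ezh1 had no WT promoter peak. Of its 4 Bmi1-/- peaks none overlapped a WT peak either.

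Among the core subunits, Eed, the reader of H3K27me3 that stimulates the enzyme, was a member with the higher rank in WT. Its WT peak at chr7:89980324-89981003 held 22 reads, an enrichment of 3.48 (2.18 to 5.27) at the 90.2nd percentile. The Bmi1-/- peak at chr7:89980412-89981397 held 25 reads, 3.11 (2.01 to 4.59) at the 87.3rd. The ratio was 0.893 (0.483 to 1.66), and although the peaks shared 592 bp, their summits were 760 bp apart, on either side of the start site.

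Suz12, the scaffold of the complex, ranked higher in Bmi1-/-. WT had 2 peaks at its start site, chr11:79992520-79992733 with 23 reads (enrichment 3.64, 2.31 to 5.46, 94.8th percentile) and chr11:79992898-79993482 with 21 reads (3.32, 2.06 to 5.08). Bmi1-/- had 1 peak of 1386 bp that overlapped both, chr11:79992539-79993924, with 35 reads, 4.35 (3.03 to 6.05) and the 98.5th percentile. The ratio to the stronger WT peak, whose summit was 575 bp away, was 1.20 (0.687 to 2.12). To the other WT peak, with its summit 176 bp away, the ratio was 1.31 (0.742 to 2.37). Neither gap exceeded counting error. Suz12 and Ezh2 each had a single peak in Bmi1-/- where WT had a pair.

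Jarid2, an accessory subunit that helps PRC2 find its targets, held a peak 1.0 to 1.1 kb downstream of its first TSS in both lists, just upstream of a second coding start site. In WT, chr13:44730470-44730916 held 24 reads, an enrichment of 3.80 (2.43 to 5.65) at the 93.5th percentile. In Bmi1-/-, chr13:44730224-44731105 held 42 reads, 5.22 (3.76 to 7.06) at the 98.9th, and the ratio was 1.38 (0.814 to 2.37). Bmi1-/- had 3 further promoter peaks, at 0.353, 3.98 and 111 kb, and the peak at 3.98 kb overlapped the second WT promoter peak, with a ratio of 1.22 (0.653 to 2.35).

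The tallest peak of any member lay deep in the Jarid2 gene, 140 kb from the first TSS in an intron, and was listed in both libraries. In WT, chr13:44869500-44870117 held 68 reads, an enrichment of 10.8 (8.35 to 13.6). In Bmi1-/-, chr13:44869509-44870058 held 86 reads, 10.7 (8.55 to 13.2). Both stood at the 99.9th percentile with summits 1 bp apart, and the ratio was 0.994 (0.715 to 1.39), the narrowest interval of all member pairs. The sequence there was not unique: the 31 bases at the summit occurred 7 times on the assembled chromosomes, and 56.6% of the 31-base words of the WT peak and 60.8% of those of the Bmi1-/- peak occurred more than once. Of the 6 other copies, 2 lay under a peak in both lists, all 4 of these at the 99.9th percentile, and 1 lay under a WT peak only, at the 94.8th. Over all 76 member peaks, 65 held no repeated word and 3 held more than 50% repeated words, which were this pair and a WT peak 4.2 kb upstream of Aebp2. The part of shared reads in the height of the Jarid2 peak was not tested. The remaining peaks of Jarid2 lay 171 to 188 kb from the first TSS, 5 in WT and 4 in Bmi1-/-, and among them 1 pair overlapped, at 171 kb (14 reads in WT and 22 in Bmi1-/-, ratio 1.24, 0.604 to 2.61).

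Aebp2, a zinc finger partner of JARID2, had the most peaks of any member in Bmi1-/-, 10, beside 7 in WT, with 4 in each list overlapping. The strongest WT peak, chr6:140624056-140624648, held 26 reads, an enrichment of 4.11 (2.69 to 6.02) at the 92.9th percentile. The strongest Bmi1-/- peak, chr6:140623204-140624082, held 37 reads, 4.60 (3.24 to 6.34) at the 96.1st. These shared only 27 bp and their summits were 710 bp apart, so their ratio of 1.12 (0.659 to 1.92) compares neighbouring sites. The WT list had a weaker peak with its summit 6 bp from that of the Bmi1-/- peak, with 19 reads and a ratio of 1.53 (0.858 to 2.82). Both intervals included 1.

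Of the Polycomb-like genes, Mtf2 showed the widest gap in rank. Its WT peak, chr5:108065579-108065819, held 17 reads, an enrichment of 2.69 (1.57 to 4.30), and stood at the 40.1st percentile with a −log10 q of 1.15, short of a q-value of 0.05. Its Bmi1-/- peak, chr5:108065551-108066062, held 33 reads, 4.10 (2.82 to 5.76), at the 97.9th percentile with a −log10 q of 7.12. The summits were 42 bp apart, and the ratio of 1.53 (0.826 to 2.92) still included 1. Both other Mtf2 peaks in Bmi1-/- were weak, at or below the 29.2nd percentile.

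Phf1, like Eed, had the higher rank in WT. The WT list had 1 peak, chr17:26932816-26933362, with 27 reads, 4.27 (2.81 to 6.21) at the 84.7th percentile. At the same start site Bmi1-/- had chr17:26932908-26933761 with 31 reads, 3.85 (2.62 to 5.47) at the 75.5th, and the ratio was 0.903 (0.521 to 1.57). Local background at these peaks was raised in both lists alike, 1.57 and 1.60 times the lowest of the library.

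Phf19 held the strongest promoter peak of any member, and it was an internal one. In Bmi1-/-, chr2:34904680-34905516, in an intron 8.86 kb downstream of the first coding TSS and 255 bp upstream of the start of a noncoding transcript, held 52 reads, an enrichment of 6.46 (4.83 to 8.48) at the 99.5th percentile. In WT, chr2:34904875-34905458 held 28 reads, 4.43 (2.94 to 6.40) at the 93.7th. The ratio of 1.46 (0.905 to 2.40) was the largest after that of Mtf2 among the strongest pairs, and its interval included 1. At the upstream promoter WT held 22 reads at chr2:34914260-34914480 (3.48, 2.18 to 5.27) and Bmi1-/- held 26 at chr2:34914448-34914895 (3.23, 2.11 to 4.74). The ratio there was 0.929 (0.506 to 1.72). If only start sites of coding transcripts are counted, the strongest Phf19 promoter peak ranked 84.5th in WT and 81.8th in Bmi1-/-, and the order of the lists turned.

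Kdm6b, the demethylase, had no peak shared between the lists, as was also the case for Ezh1. In WT it had chr11:69415309-69415581, 1.7 kb upstream of its start site, with 30 reads, an enrichment of 4.74 (3.20 to 6.77) at the 67.8th percentile, and a weak peak in a coding exon near the TSS of a noncoding transcript with 24 reads at the 19.1st, for which the nearest coding TSS was that of Tmem88. In Bmi1-/- the strongest was chr11:69418746-69419150, 5.3 kb upstream, with 52 reads, 6.46 (4.83 to 8.48) at the 98.0th percentile. Another stood 4.0 kb upstream with 37 reads at the 72.0th, and the last lay 4.9 kb inside the gene with 34 reads at the 35.4th. The sequences under the summits of the WT peak and of the strongest Bmi1-/- peak, on the strand of the gene and with no searched motif, are shown since the position of the peak is what differed.
Kdm6b, chr11:69415345-69415494 (minus strand): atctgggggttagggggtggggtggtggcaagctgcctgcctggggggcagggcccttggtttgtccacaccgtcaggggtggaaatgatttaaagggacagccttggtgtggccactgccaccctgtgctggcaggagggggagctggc
Kdm6b, chr11:69418839-69418988 (minus strand): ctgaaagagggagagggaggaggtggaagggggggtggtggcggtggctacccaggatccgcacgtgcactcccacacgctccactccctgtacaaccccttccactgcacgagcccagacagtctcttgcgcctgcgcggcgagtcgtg
They differed in CpG content, with an observed over expected of 0.0721 in the WT window and 0.614 in the Bmi1-/- window. Whether Kdm6b counts as open at its promoter in Bmi1-/- depends on the annotation: the curated RefSeq start site lies further upstream, and the strongest Bmi1-/- peak then has its summit 2.77 kb upstream of it, so with RefSeq 10 of 10 members had a promoter peak in Bmi1-/- and 9 of 10 in WT. Local background at Kdm6b was the highest of all members, 1.80 to 2.02 times the lowest of the library in WT and 2.15 to 2.21 times in Bmi1-/-. Over all peaks of the lists, a background above 1.5 times the lowest was found at 4.11% in WT and 5.36% in Bmi1-/-. Its part in the Kdm6b calls was not tested.

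**Figure D3:**
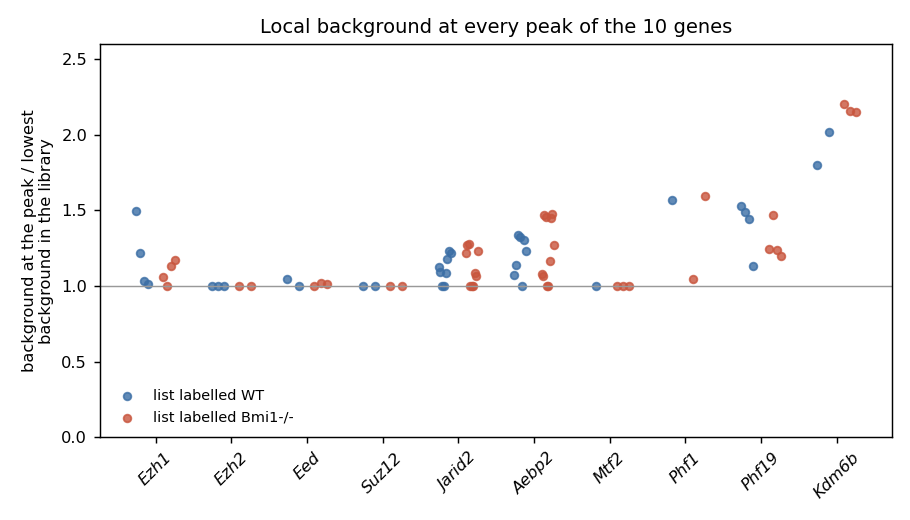
Local background at each of the 76 peaks of the 10 genes (x axis), divided by the lowest background in the library (y axis), with WT in blue and Bmi1-/- in red. The 5 Kdm6b peaks lie between 1.80 and 2.21, above every peak of the other genes, and the Ezh2, Suz12 and Mtf2 peaks lie at 1.

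Set side by side, the strongest promoter peaks of the members spanned a narrow range. In WT the enrichment ran from 2.69 (Mtf2) to 4.74 (Kdm6b), and in Bmi1-/- from 3.11 (Eed) to 6.46 (Phf19). The order depends on the background used: by the deposited fold enrichment over local background, Kdm6b was the lowest in WT at 2.25 and Ezh2 the highest at 3.82. In Bmi1-/- Phf1 was then the lowest at 2.31 and Ezh2 the highest at 4.20. In the order by summit enrichment, neighbours do not differ beyond their counting intervals. In WT even the lowest and the highest intervals met (1.57 to 4.30 and 3.20 to 6.77). In Bmi1-/- the interval of Eed (2.01 to 4.59) and that of Phf19 (4.83 to 8.48) did not meet. These are the lowest and the highest of 9 members, picked after ranking.

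**Figure D4:**
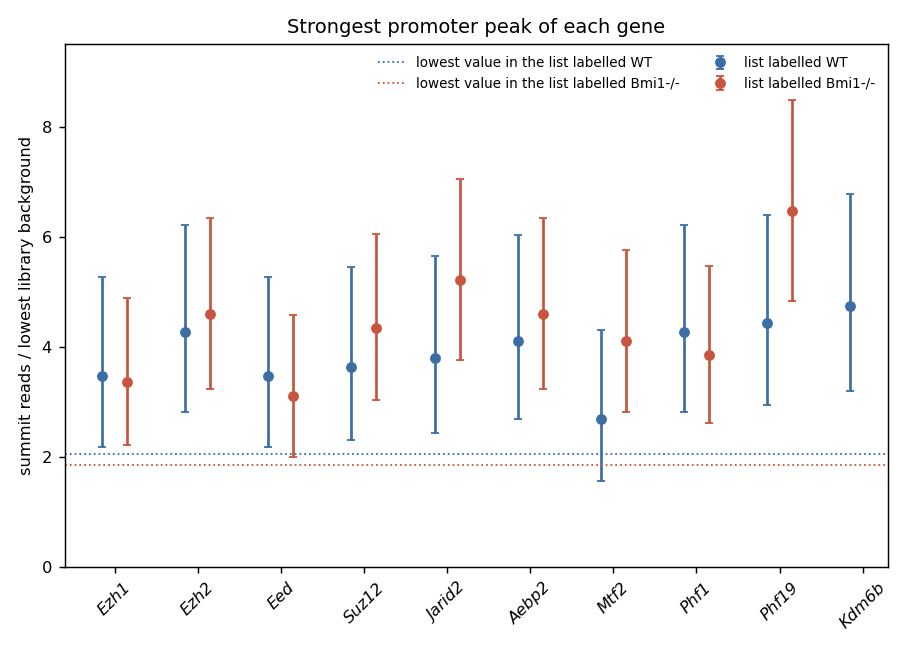
Summit reads of the strongest promoter peak of each gene divided by the lowest background of its library (y axis), with exact Poisson 95% intervals, WT in blue and Bmi1-/- in red. Dotted lines mark the weakest peak of each list (2.06 and 1.86); the intervals of the lists meet for every gene with a point in both.

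Over the 18 overlapping pairs of member peaks, Bmi1-/- was higher in 12 and the median ratio was 1.16, from 0.745 to 1.53. The pairs are not independent. At Ezh2, Suz12 and Aebp2 the same Bmi1-/- peak entered more than 1 pair, as did a WT peak of Aebp2. In all of these pairs Bmi1-/- was higher. No pair had an interval above 1 and 0 had one below it. For the 8 pairs of strongest promoter peaks the median was 1.16 (0.893 to 1.53), with 6 above 1, and over all 6434 genes with such a pair the median was 1.09, with quartiles of 0.948 and 1.26. Jarid2, Mtf2 and Phf19 lay above the upper quartile, Eed and Phf1 under the lower one, and Ezh2, Suz12 and Aebp2 between the quartiles. In the pairs of Eed, Suz12 and Aebp2 the summits were 575 to 760 bp apart. With 17 to 52 reads per summit, a difference of the size seen in these pairs was not detectable at this depth. A ratio needs overlapping peaks in both lists. Peaks without a partner, among them all those of Ezh1 and Kdm6b, were not compared in this way.

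**Figure D5:**
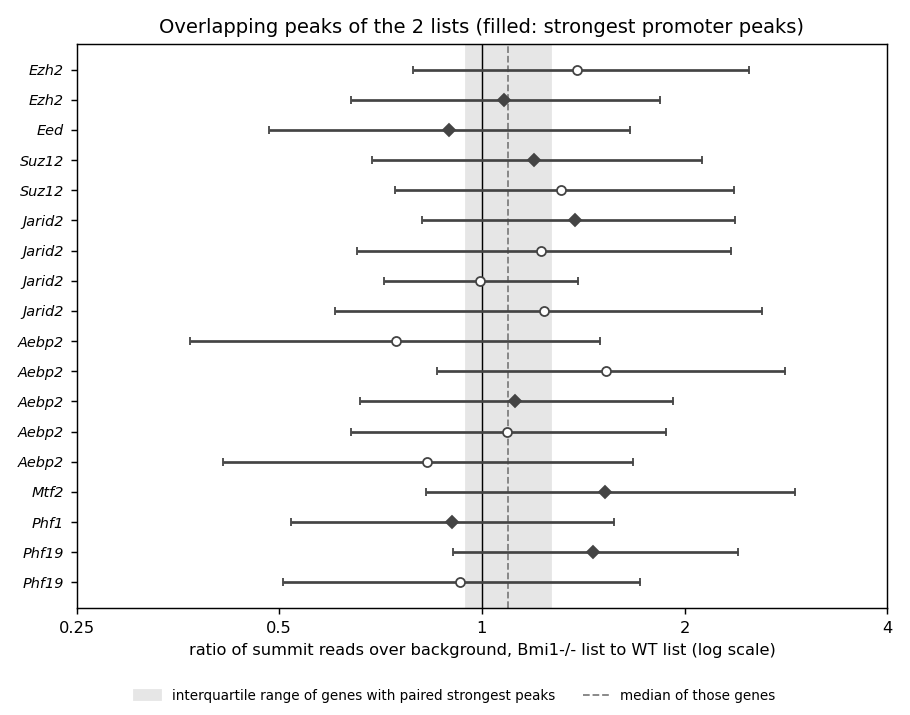
Ratio of summit enrichment, Bmi1-/- to WT (x axis, log scale), for the 18 pairs of overlapping peaks, 1 row per pair under its gene name, with exact conditional 95% intervals. Filled diamonds are the 8 pairs of strongest promoter peaks, the grey band and dashed line give the quartiles and median (1.09) over 6434 genes, and every interval crosses 1.

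By gene length, members had a median of 0.612 peaks per 10 kb of gene body and upstream region in WT and 0.854 in Bmi1-/-, beside 0.511 and 0.656 over all protein-coding genes. Aebp2 had 3 peaks more in Bmi1-/- than in WT, Mtf2 had 2 more, and Eed, Jarid2, Phf1 and Kdm6b had 1 more each, while Ezh2 had 1 fewer and Ezh1, Suz12 and Phf19 had the same number.

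Of 8 other genes of the complex and of H3K27 demethylation, 5 had a promoter peak in both lists (53% of all genes did), Rbbp4 and Rbbp7 (the histone-binding subunits), Lcor and Lcorl (which form a PRC2.1 complex through their PALI isoforms) and Kdm6a (UTX, the X-linked relative of Kdm6b). The rank was higher in Bmi1-/- for 3 of the 8 and in WT for 4, and Uty had no peak to rank. Over all genes with a promoter peak, 68.6% ranked higher in Bmi1-/-. Epop and Ezhip were placed by a promoter peak in 1 list only. Over all genes 15.2% had one in Bmi1-/- only and 6.1% in WT only. In the 4 pairs of strongest promoter peaks the ratio was above 1 in 2, beside a median of 1.09 over all genes with such a pair. Rbbp4 stood at the 99.3rd percentile in WT and the 99.2nd in Bmi1-/- and Rbbp7 at 99.3 and 97.9. Kdm6a had 28 reads in WT and 30 in Bmi1-/-. Their ratios were 1.14 (0.719 to 1.84), 0.865 (0.511 to 1.47) and 0.842 (0.486 to 1.46). Lcorl had the widest gap in rank, the 70.8th percentile in WT and the 99.0th in Bmi1-/-, with 19 and 39 reads and a ratio of 1.61 (0.910 to 2.96). Epop, a PRC2.1 partner, had 5 peaks in Bmi1-/- and 0 in WT, of 24 to 30 reads, on a local background of 1.51 to 1.61 times the lowest. Ezhip, an inhibitor of PRC2 annotated under AU022751, had 1 peak of 18 reads in WT and 0 in Bmi1-/-, and the Y-linked Uty had none in either list.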

How the data were processed

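Peaks of ATAC-seq in P2 organ of Corti were used, with 1 library of pooled animals for WT and 1 for Bmi1-/-. Groups follow the genotype that GEO gives. According to the submitters' processing notes, FastQC, BWA, MACS2 and HOMER were used with the build mm10. The MACS2 version and options for the ATAC-seq reads are not given in the sources used here. The authors called peaks in each library separately. The deposited fold enrichment is a ratio of pileup to local background, each with 1 added. The deposited −log10 p-value comes from a Poisson model of the pileup, and the deposited −log10 q-value is corrected for all tests of its library. No use was made of the deposited score, and the remaining columns give positions.

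Unplaced sequences were left out, which removed 230 of 77826 in WT and 237 of 100668 in Bmi1-/-. Pileup and background were solved jointly from both deposited statistics (fold enrichment, −log10 p), which gave a whole pileup for 100% of peaks in both lists within 0.001 on the −log10 scale. A percentile is the share of the own list with a lower −log10 p. Genes and start sites were those of GENCODE vM21. The solver, the overlaps (against bedtools 2.31.1) and the assignment were tested on simulated data. Python 3.11.15 with numpy 2.4.6, pandas 2.3.3, scipy 1.17.1 and matplotlib 3.10.9 was used. Sequences were read from GRCm38, and promoter windows from RefSeq (GRCm38.p6), which matched 9 of 10 members; Kdm6b was not among them.

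Shares have exact binomial, summit reads exact Poisson and ratios exact conditional 95% intervals, which cover counting error only. No test between genotypes was made. The genes named are all members, the listed genes of the complex, and a neighbour where its start site was the nearest to a member's peak. Members, lists and alternatives were chosen with earlier results of these data known. Coordinates are 1-based.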

Additional observations from a re-analysis of the deposited data

How the results depend on the processing

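Of 82 values under 14 alternative settings, 69 stayed close to those reported, 13 moved and 0 reversed. Only the count of members by rank could reverse, since the other values have no direction. The bounds for close were wide: members with a promoter peak in Bmi1-/- going from 9 to 6 still counted as close. The overlap could not change with a promoter window of 1 kb or coding start sites alone. Every promoter peak of a member also lay in its gene region. A threshold of −log10 q of at least 5 moved most: it left 1 member with a promoter peak in WT and 1 in both lists (6 in Bmi1-/-), 1 and 6 promoter peaks, 2 and 8 peaks in the gene regions, and an overlap of 100% of 2 WT peaks. With q under 0.05 the WT gene regions held 22 peaks. Promoter peaks in WT fell to 13 with the curated RefSeq annotation, to 14 with start sites of coding transcripts only and to 12 with the 5′-most coding start site, fewer start sites being counted in each. A reciprocal overlap of 50% lowered the shared part to 17.6% in WT and 14.3% in Bmi1-/-, and the cause was not tested. The number of members ranked higher in Bmi1-/- was 6 or 7 in every setting. With RefSeq, Kdm6b joined and Phf19 left, with coding start sites Phf19 left, and with summit reads over background Ezh1 left. At −log10 q of at least 5 only 6 members could be ranked, all higher in Bmi1-/-, and Ezh1 was not among them. Of these, 1 had a WT promoter peak at that threshold. The 5′-most start site and the ranking by summit reads over background were chosen after seeing the data. No paired analysis was possible because there is 1 library per genotype, and no replicate could be left out. Depth limits the ratios: no member pair had an interval clear of 1. Peaks without a partner in the other list have no ratio, so this says nothing about them.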
